A study of Homo sapiens with 6 samples.

Results

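The TNF ligand and receptor superfamilies were followed in KMM1 cells, a line grown from a human multiple myeloma, after transduction with a lentivirus expressing TAZ. The 36 genes described here were chosen by name: a ligand, receptor or decoy receptor of the superfamilies, each matched by the gene name on its transcript lines, out of 57290 genes in each file. All 36 were found. By role they are 6 death receptors, 2 decoy receptors, 4 death ligands, 4 B cell survival genes, 12 costimulatory genes and 8 genes of the lymphotoxin, TNFR2, RANK and TWEAK axes. The study has 2 groups of 3 libraries of polyadenylated RNA, taken 4 days after transduction: KMM1 cells with the TAZ vector (TAZ) and KMM1 cells with the empty vector WPI (control). Both groups therefore carry a lentiviral vector, and both are 1 cell line. TAZ is the protein of the gene WWTR1, a coactivator that the Hippo pathway restrains and that works with TEAD factors. The labels call the work a re-expression of TAZ in these cells.

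Ligands of the TNF superfamily are mostly trimeric membrane proteins, some of them shed, and their receptors recruit TRAF adaptors or, where they carry a death domain, adaptors that lead to caspases. In the B lineage, the receptors for BAFF and APRIL carry survival signals, and NF-kB activity downstream of such receptors is a known feature of many myelomas. CD70, CD137 (TNFRSF9), its ligand CD137L (TNFSF9) and HVEM (TNFRSF14) are better known from contacts between T cells and antigen-presenting cells.

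Levels are given as TPM (transcript abundance, corrected for length and library total) after scaling between libraries, called scaled TPM, in the order of libraries 1, 2 and 3 of a group. Differences are TAZ minus control on log2(scaled TPM + 1), ± SE, from limma over all tested genes, with Benjamini-Hochberg adjusted p, and a gene is called to have risen or fallen where that p is under 0.05. On this scale the change of a gene with a low level is understated: with a pseudocount of 0.1 or 5 in place of 1, for example, the difference of LTA was -1.46 or -0.37 and that of TNFRSF19 was -1.27 or -0.53, each on the same side of the threshold as before. The labels number the libraries without saying whether each came from its own culture. The p-values then measure only how these 6 libraries spread, and that spread may be technical. Aligned sequence ran from 1099.95 to 2033 megabases a library. WWTR1 stood at 1.65 ± 0.609 scaled TPM (SD, n = 3) in the control and 216 ± 129 in the TAZ libraries (SD, n = 3), higher where the labels give the TAZ vector. Among 10 plasma cell markers 3 fell (SDC1, IRF4 and SLAMF7), and the summed level of the 10 ranged from 2442 to 3161 scaled TPM in the control and from 2857 to 3252 in the TAZ libraries. IGJ, the highest of them, measured 1147 ± 88.3 and 1841 ± 253 scaled TPM (SD, n = 3 each, not called). The median log2 difference of the list was -0.63. In 5 of the 10 all TAZ libraries lay below all controls (14.8% of all tested genes), and in 1, IGJ, above (10.1%). Markers of T and NK cells summed to at most 1.98 scaled TPM in any library (8 genes, NKG7 at 0 in all 6) and those of B cells to at most 6.24 (7 genes). Of 5 epithelial markers, KRT8 and KRT18 rose, and the list summed to 194 to 322 scaled TPM in the control and 957 to 2293 in the TAZ libraries, with KRT19 at no more than 0.113. KRT8 carried most of that sum. EPCAM measured 53.3 ± 27.1 and 49.1 ± 5.91 scaled TPM (SD, n = 3 each), and CDH1 measured 48.7 ± 10.5 and 25.2 ± 7.08 (SD, n = 3 each), lower in all TAZ libraries but not called (adjusted p = 0.161). The myeloid list (6 genes) summed to 5.09 to 5.93 scaled TPM in the control and 2.10 to 2.33 in the TAZ libraries, and CD14 in it fell. The stromal list (5 genes) summed to 2.07 to 2.79 and 3.11 to 3.57 scaled TPM, and 2 endothelial genes to at most 0.186. The part of these markers in the results on TNF superfamily genes was not tested.

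With TAZ, 2 of the TNF superfamily genes fell and 0 rose. This split moved with the scaling: without scaling 1 fell (TNFRSF9) and 2 rose (TNFRSF12A and TNFRSF14), and with upper quartile scaling 1 fell (TNFRSF9) and 0 rose. With the scaling used here the genes that fell were TNFRSF9, the receptor CD137, which went from 18.3 ± 2.00 to 5.23 ± 0.976 scaled TPM (SD, n = 3 each), and TNFRSF19, the receptor TROY, which went from 5.23 ± 0.728 to 2.10 ± 0.183 (SD, n = 3 each). These are bulk libraries, in which fewer cells with a transcript and less of it per cell cannot be told apart. Of the 36 genes, 21 had a mean of at least 1 TPM and were tested, and the other 15 lay under it. Over all 19390 tested genes 623 were called, or 3.21%. The genes that rose were 436, or 2.25%, and those that fell 187, or 0.964%. The split over all genes moved to 533 and 85 without scaling and 540 and 99 with upper quartile scaling. None of the 21 rose, and 3 of them, TNFSF9, TNFRSF14 and TNFRSF12A, had a difference above 0 at an unadjusted p under 0.05 by the same limma test. In either direction 10 of the 21 had such a p, beside 3483 of the 19390 tested genes, or 17.96%. The 3 TAZ libraries lay wholly above the 3 control libraries for 3 of the 21, against 10.1% of all tested genes, and wholly below for 7, against 14.8%. The median log2 difference of the 21 was -0.42, beside -0.05 for all tested genes. Of the 21, 8 lay above 0 and 13 below. Both of these counts were the same without scaling between libraries, where the median was -0.16 for the 21 and 0.17 for all tested genes.

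**Figure D1:**
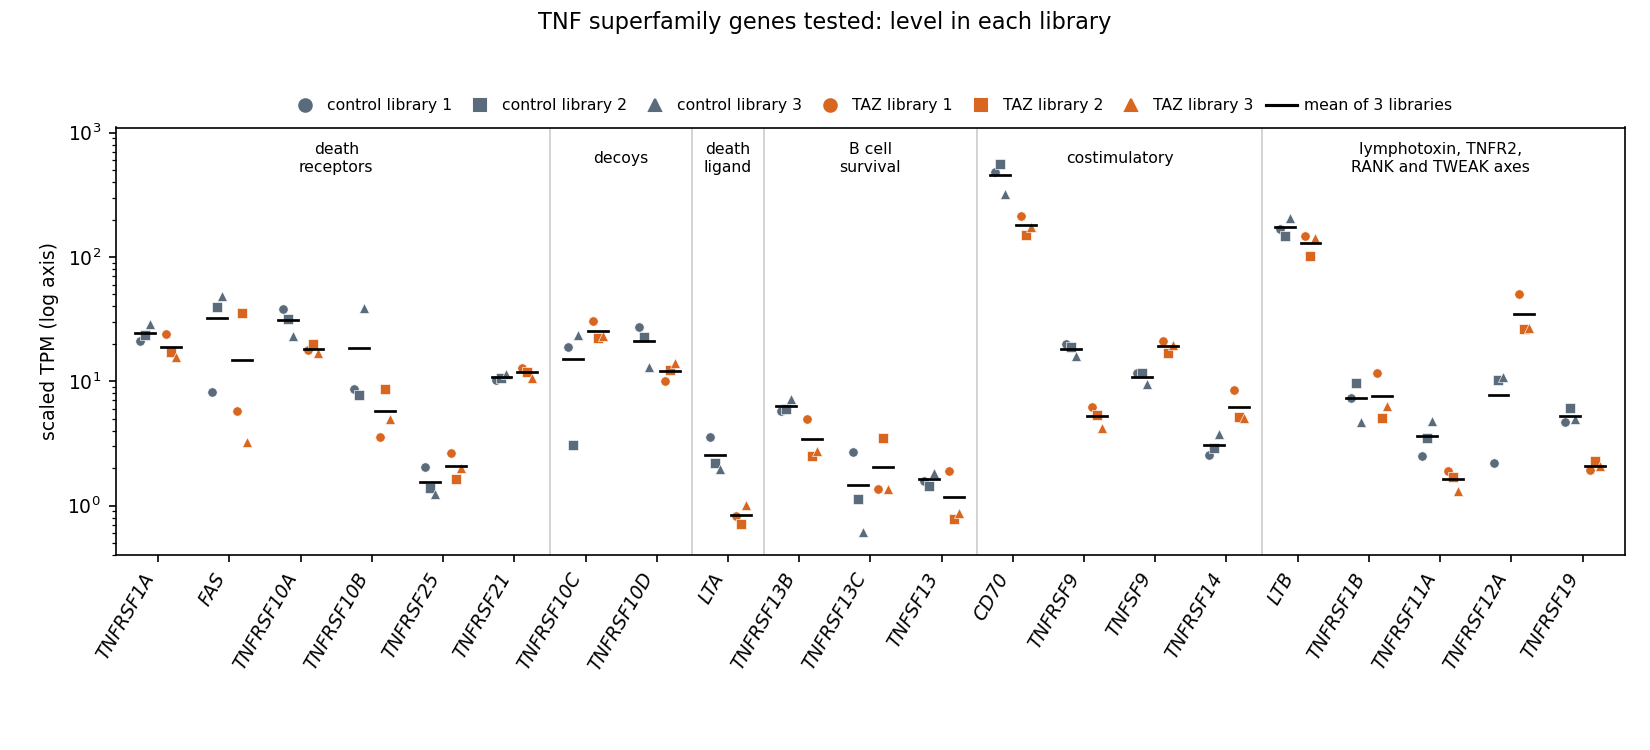
Scaled TPM (log axis) of the 21 tested TNF superfamily genes in each of the 3 control (grey) and 3 TAZ (orange) libraries, ordered by role, with the mean of each group as a bar. TNFRSF9 and TNFRSF19 have all TAZ libraries below all control libraries, whereas FAS and TNFRSF10B spread widely within a group.

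**Figure D2:**
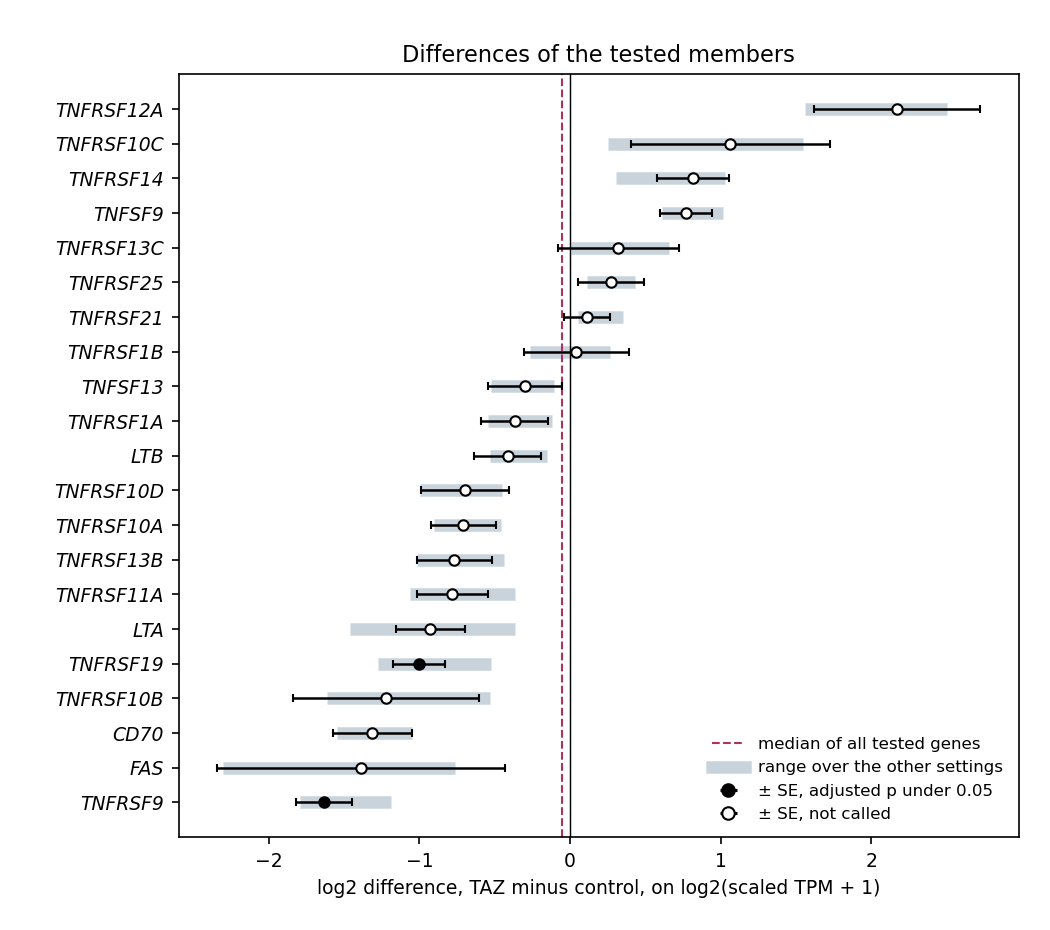
Log2 difference, TAZ minus control, of the 21 tested genes with its SE (filled points have an adjusted p under 0.05), over the range of the same value across the other settings (grey bars). The points run from -1.63 for TNFRSF9 to 2.17 for TNFRSF12A, and the dashed line is the median of all tested genes.

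The values rest mostly on long exons. In the most abundant annotated transcript of each of the 21 tested genes, 42 of 85 exons shorter than 200 bases were listed at 0 in all 6 libraries, and 0 of 47 longer exons were (a length chosen after the values were seen). Such empty exons were found in 16 of the 21 genes, and in those the level is read from part of the transcript. The other 5, TNFRSF21, CD70, TNFRSF12A, TNFRSF13B and TNFRSF13C, had signal on every exon of that transcript in at least 1 library. For TNFRSF13B that transcript has only 1 exon, so the gene may still be read in part.

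The superfamily was carried by few genes in these cells. CD70 and LTB had a mean of at least 100 scaled TPM, 10 genes lay from 10 to 100, 9 from 1 to 10 and 15 under 1. CD70 and LTB together held 67.3% to 76.5% of the summed level of all 36 genes in the control and 55.4% to 65.6% in the TAZ libraries. The sum over all 36 was 855, 926 and 789 scaled TPM in the control and 584, 457 and 484 in the TAZ libraries. No TAZ library reached a control library in that sum. Without CD70 it was 371, 364 and 466 in the control and 369, 305 and 309 in the TAZ libraries, and there the groups overlapped.

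Death receptors carry an intracellular death domain. All 6 passed the filter on low values and 0 were called, and their median log2 difference was -0.54. TNFRSF10A, a receptor for TRAIL (hg19, chr8:23047965-23082639, minus strand), was the highest of them by mean. It measured 38.1, 31.7 and 23.16 scaled TPM in the control and 17.8, 19.98 and 16.9 in the TAZ libraries. Every TAZ library lay below every control library, and the difference of -0.71 ± 0.22 missed the threshold (adjusted p = 0.168). Antisense RNAs share 16.6% of its exon bases, and the higher of them, RP11-1149O23.3, measured 29.2, 15.1 and 9.25 scaled TPM in the control and 9.75, 9.38 and 11.8 in the TAZ libraries. With no statement in the sources used here on whether quantification used strand, reads of the receptor and of its antisense partners cannot be told apart.

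TNFRSF10B, the other signalling TRAIL receptor, measured 8.63, 7.75 and 38.7 scaled TPM in the control and 3.57, 8.60 and 4.99 in the TAZ libraries. Control library 3 stood apart from the other 5, and the difference was -1.22 ± 0.62 (adjusted p = 0.351), and -0.53 without that library (adjusted p = 0.374). In control library 3, 85.6% of the aligned bases of the gene lay on its last exon (2852 bases) at a depth of 23.7 per 1000 megabases aligned, whereas that exon held at most 0.318% in any other library. Their reads lay mostly on exons further upstream, so the 6 values do not come from the same stretch of the transcript.

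FAS, the receptor for FAS ligand (chr10:90750414-90775542, plus strand), measured 8.25, 39.7 and 48.6 scaled TPM in the control and 5.73, 35.2 and 3.25 in the TAZ libraries. The groups overlapped, and the difference of -1.39 ± 0.96 (adjusted p = 0.483) had the largest SE of the 21 tested genes. It ran from -2.31 without TAZ library 2 to -0.77 without TAZ library 3. The last exon of FAS (1667 bases) had a depth of 24.4 and 29.8 per 1000 megabases in control libraries 2 and 3 and 23.7 in TAZ library 2, and it was listed at 0 in control library 1 and in TAZ libraries 1 and 3. The libraries with signal on that exon were the same 3 that had a high level of the gene. ACTA2 on the opposite strand shares 12.1% of the exon bases of FAS and had a mean of 2.43 TPM.

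**Figure D3:**
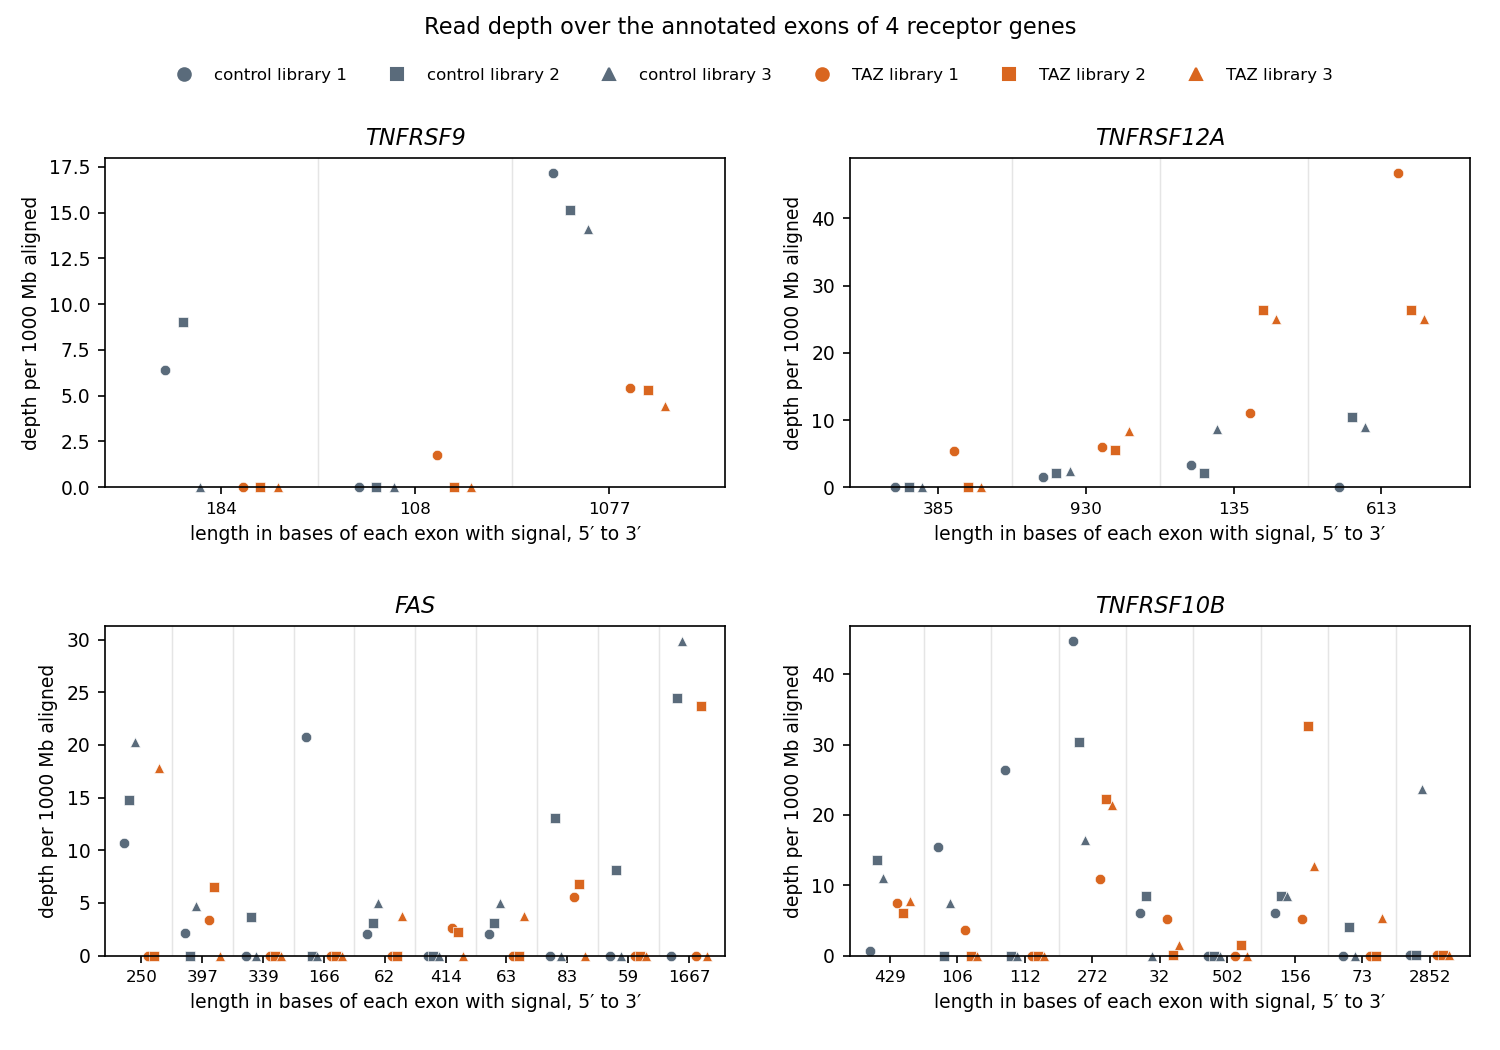
Mean depth per 1000 megabases aligned over each annotated exon with signal, in 5′ to 3′ order and labelled by its length in bases, for TNFRSF9, TNFRSF12A, FAS and TNFRSF10B. Grey marks are control and orange marks TAZ libraries. The last exon of TNFRSF9 separates the groups in all 6 libraries, while the last exons of FAS and TNFRSF10B reach a depth above 20 in 3 libraries and 1 library.

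The other death receptors had smaller differences. TNFRSF1A, the main receptor for TNF, had means of 24.6 ± 3.97 and 18.998 ± 4.52 scaled TPM (SD, n = 3 each) in control and TAZ libraries, a difference of -0.37 ± 0.22 (adjusted p = 0.424). TNFRSF21, known as DR6, was the most even of the 21 genes by SE, at 10.8 ± 0.621 and 11.8 ± 1.10 scaled TPM, with a difference of 0.11 ± 0.15. TNFRSF25, known as DR3, measured 1.55 ± 0.416 and 2.08 ± 0.506, with overlapping groups.

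The decoy receptors bind TRAIL without a working death domain, and 0 of 2 were called. TNFRSF10C measured 18.8, 3.05 and 23.5 scaled TPM in the control and 30.7, 22.4 and 23.27 in the TAZ libraries. Control library 2 was the low one, and there the exon of 862 bases that held 75.9% to 98.7% of the gene's aligned bases in the other 5 libraries held 1.03%. The difference was 1.07 ± 0.66 (adjusted p = 0.443), and 0.25 without control library 2 (adjusted p = 0.680). TNFRSF10D measured 27.5, 22.5 and 13.1 scaled TPM in the control and 10.004, 12.4 and 14.04 in the TAZ libraries, with a difference of -0.70 ± 0.29 (adjusted p = 0.278) and groups that overlapped.

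The summed level of the 2 decoys over that of TNFRSF10A and TNFRSF10B was 0.991, 0.647 and 0.592 in the control and 1.90, 1.22 and 1.71 in the TAZ libraries. In this ratio the groups did not overlap. It was formed after the values were seen and carries no test. The libraries in which TNFRSF10B and TNFRSF10C stood apart are both among the controls. The 4 genes lie next to each other on chromosome 8 with gaps of 15.2, 18.2 and 26.4 kb, and they resemble each other in sequence, so reads may have been split among them in the authors' quantification.

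Of the death ligands, LTA alone reached 1 TPM. LTA, lymphotoxin alpha (chr6:31539831-31542101, plus strand), measured 3.55, 2.19 and 1.97 scaled TPM in the control and 0.824, 0.705 and 1.01 in the TAZ libraries. All TAZ libraries lay below all control libraries, and the difference of -0.93 ± 0.23 missed the threshold (adjusted p = 0.0995). The value rests on 673 to 4673 aligned bases a library.

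TNFSF10, the ligand TRAIL, measured 0.0942, 0.906 and 0.823 scaled TPM in the control and 0.964, 0.801 and 1.18 in the TAZ libraries, with groups that overlapped. TNF measured 0.833, 0.535 and 0.125 in the control and 0.0919, 0 and 0.271 in the TAZ libraries, and here too the groups overlapped. FASLG, the ligand of FAS, was listed at 0 in 3 of 6 libraries and rested on at most 101 aligned bases. TNFRSF1A, TNFRSF10A, TNFRSF10B and FAS were therefore measured above TNF, TNFSF10 and FASLG in every library, on the TPM scale. This does not extend to all receptors of the lymphotoxins: LTBR, the receptor of LTB, lay below LTA in every library.

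Among the B cell survival genes 0 of 3 tested were called. TNFRSF13B, the receptor TACI (chr17:16832849-16875432, minus strand), measured 5.75, 5.94 and 7.25 scaled TPM in the control and 4.97, 2.52 and 2.72 in the TAZ libraries. The groups did not overlap, and the difference of -0.77 ± 0.25 missed the threshold (adjusted p = 0.190). Between 47.2% and 58.5% of its TPM in each library came from 1 annotated single-exon transcript. TBC1D27 on the same strand shares 20.6% of the exon bases of TNFRSF13B and had a mean of 0.986 TPM.

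TNFRSF13C, the BAFF receptor, measured 2.69, 1.13 and 0.614 scaled TPM in the control and 1.35, 3.47 and 1.35 in the TAZ libraries, and the groups overlapped. TNFSF13, the ligand APRIL, had a difference of -0.30 ± 0.25 (adjusted p = 0.555), with means of 1.62 ± 0.199 and 1.18 ± 0.617 scaled TPM (SD, n = 3 each). It shares 58.4% of its exon bases with TNFSF12 on the same strand, so reads of the 2 ligands cannot be told apart there. TNFSF13B, the ligand BAFF, stayed under 1 TPM in every library, at 0.127 to 0.440 scaled TPM in the control and 0.150 to 0.797 in the TAZ libraries. TNFRSF17, the plasma cell receptor BCMA, is outside the rule by which the 36 genes were chosen. It measured 14.8, 73.7 and 58.5 scaled TPM in the control and 22.1, 26.5 and 25.2 in the TAZ libraries, with a difference of -0.69 ± 0.57 (adjusted p = 0.555).

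The costimulatory genes held the strongest call of the superfamily, TNFRSF9 (chr1:7979907-8000926, minus strand). It measured 19.96, 18.8 and 16.1 scaled TPM in the control and 6.17, 5.31 and 4.22 in the TAZ libraries. The lowest control library lay well above the highest TAZ library, the ratio of the means was 0.286, and the difference was -1.63 ± 0.19 (adjusted p = 0.00611, lower in 3 of 3 TAZ libraries). By p it was number 222 of the 19390 tested genes. Between 90.7% and 100% of its aligned bases lay on the last exon (chr1:7979907-7980983), at a depth of 17.2, 15.1 and 14.1 per 1000 megabases in the control and 5.41, 5.31 and 4.44 in the TAZ libraries. The measurement of TNFRSF9 is therefore in effect one of its 3′ exon, and 5 of the 8 exons of its annotated main transcript were listed at 0 in all libraries.

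TNFSF9, its ligand CD137L (chr19:6531010-6535931, plus strand), measured 11.6, 11.6 and 9.43 scaled TPM in the control and 21.2, 16.8 and 19.7 in the TAZ libraries. Every TAZ library lay above every control library, and the difference of 0.77 ± 0.17 missed the threshold (adjusted p = 0.0758). As with the receptor, 94.2% to 99.5% of the aligned bases lay on the last exon. The ratio of receptor to ligand was 1.73, 1.63 and 1.70 in the control and 0.291, 0.316 and 0.214 in the TAZ libraries. So the receptor was the higher of the pair in all 3 control libraries and the ligand in all 3 TAZ libraries, on the TPM scale. As a combination of values already seen, the ratio carries no test.

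The promoters of this receptor and ligand pair are shown because the receptor is the firmest call and the ligand lay on the other side of 0. They come from RefSeq (GRCh38.p14, a build other than that of the files), from 250 bases before to 50 bases after the start site, 5′ to 3′ on the strand of the gene. TNFRSF9 is chr1:7940790-7941089, minus strand, and TNFSF9 is chr19:6530776-6531075, plus strand, in that build. Capitals mark matches to the motifs searched: in TNFRSF9, in this order, an interferon gamma activated site, the NF-kB consensus and an AP-1 site, and in TNFSF9 an interferon-stimulated response element.
TNFRSF9: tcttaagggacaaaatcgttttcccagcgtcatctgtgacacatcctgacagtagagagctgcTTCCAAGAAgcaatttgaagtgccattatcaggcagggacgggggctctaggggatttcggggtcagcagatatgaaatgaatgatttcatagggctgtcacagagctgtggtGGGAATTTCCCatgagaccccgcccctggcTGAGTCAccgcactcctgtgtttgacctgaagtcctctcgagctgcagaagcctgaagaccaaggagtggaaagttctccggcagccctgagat
TNFSF9: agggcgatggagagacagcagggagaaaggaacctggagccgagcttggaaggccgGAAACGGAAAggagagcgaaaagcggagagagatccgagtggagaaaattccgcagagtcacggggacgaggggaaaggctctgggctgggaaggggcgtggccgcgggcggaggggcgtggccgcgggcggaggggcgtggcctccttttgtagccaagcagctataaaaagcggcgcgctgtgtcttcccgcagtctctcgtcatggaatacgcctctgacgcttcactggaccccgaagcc

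Motifs were searched on both strands in all 35116 promoters of the table, among which were 34 promoters of 25 of the 36 genes. CD70 and TNFRSF12A were among the genes with no promoter there, so they were not searched. The AP-1 site TGANTCA was in 7.71% of all promoters and in 6 of the 34 (17.65%). These belong to 5 genes, TNFRSF9 among them, at base -44 from the start site. The interferon gamma activated site TTCNNNGAA was in 7.66% of all promoters and in 6 of the 34 (17.65%, 4 genes). The interferon-stimulated response element was in 3.57% and in 8 of the 34 (23.5%, 6 genes). The NF-kB consensus was in 11.3% of all promoters and in 12 of the 34 (35.3%). These belong to 10 genes, which include both genes that fell, TNFRSF9 and TNFRSF19. The TEAD core GGAATG, the element bound by the partners of TAZ, was in 14.03% of all promoters. Of the 34 it was in 1 (2.94%), that of TNFRSF14, at base -48. A match is a description of these letters in this window and no evidence of binding.

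CD70, the ligand of CD27 (chr19:6583194-6604114, minus strand), was the most abundant gene of the superfamily. It measured 484, 563 and 323 scaled TPM in the control and 215, 151.5 and 175 in the TAZ libraries. All TAZ libraries lay below all control libraries. The ratio of the means was 0.395, and the difference of -1.31 ± 0.26 missed the threshold by little (adjusted p = 0.0548). Control library 3 was the lowest of its group, and without it CD70 was called (adjusted p = 0.0258). That was the only call among 17 other settings, over which the adjusted p ran up to 0.228. The reads were assigned to different transcripts: in control libraries 1 and 2, 97.01% and 96.6% of the TPM went to a transcript of 913 bases, and in control library 3 and all TAZ libraries at least 99.2% went to one of 881 bases. Without control library 3, group and assigned transcript therefore cannot be told apart. With the length fixed to the union of the exons the difference was -1.34 (adjusted p = 0.0605). The bases counted still follow the assignment there. The depth of an exon of 567 bases was 335 and 348 per 1000 megabases in control libraries 1 and 2. In all others it was 0. The first exon has forms of 312 and 299 bases. Its main form had a depth of 94.3, 159 and 215.5 in the control and 153, 98.1 and 131 in the TAZ libraries. Those values overlap, and whether the difference turned on the assignment was not tested.

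CD27, the receptor of CD70, measured 1.42, 0.951 and 0.473 scaled TPM in the control and 0.509, 0.697 and 0.315 in the TAZ libraries. The groups overlapped, and 37.0% of its exon bases are shared with the antisense RNA CD27-AS1, which had 6.13 ± 0.974 and 9.61 ± 0.965 scaled TPM (SD, n = 3 each). CD70 was 217 to 683 times the level of CD27 in the 6 libraries, on the TPM scale.

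TNFRSF14, the receptor HVEM (chr1:2487078-2496821, plus strand), measured 2.53, 2.91 and 3.73 scaled TPM in the control and 8.49, 5.20 and 5.07 in the TAZ libraries. The groups did not overlap, and the difference of 0.82 ± 0.24 missed the threshold (adjusted p = 0.155). This value moved with the length used. With the length of the gene fixed to the union of its exons the difference was 0.31 (adjusted p = 0.511). The bases counted still follow the assignment to transcripts there. In control library 1, 63.9% of them lay on an exon of 2256 bases that was at 0 in all other libraries. An exon of 91 bases had a depth of 1.70, 2.58 and 2.54 per 1000 megabases in the control and 8.41, 5.57 and 5.63 in the TAZ libraries. Whether the difference turned on the assignment was not tested. Control library 3 had its TPM on a transcript of 1707 bases. All TAZ libraries and control library 2 had theirs on one of 1225 bases, as did control library 1 for 65.7% of it. Its ligand TNFSF14, known as LIGHT, measured 0, 0.153 and 0.150 scaled TPM in the control and 0.312, 0.172 and 0.321 in the TAZ libraries, on at most 710 aligned bases.

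The costimulatory ligand genes TNFSF9, CD70 and TNFSF14 lie beside each other on chromosome 19. TNFSF9 and CD70 are 47.3 kb apart, and CD70 and TNFSF14 are 59.0 kb apart. CD70 had a difference of -1.31 and TNFSF9 one of 0.77, so neighbours lay on opposite sides of 0, neither of them called.

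Of the 8 costimulatory genes under 1 TPM, CD27 and TNFSF14 are described with their partners. CD40, a receptor through which T cells help B cells, measured 0.0636, 0 and 0 scaled TPM in the control and 0.355, 0.503 and 0.233 in the TAZ libraries. The TAZ libraries lay above all control libraries, on 292 to 553 aligned bases each against at most 97. In a fit with no filter on low values its difference was 0.41 ± 0.11 (adjusted p = 0.276), so it was not called there either. TNFSF4 was the highest of the rest at 0.518 to 0.979 scaled TPM in the control and 0.597 to 0.7502 in the TAZ libraries. TNFRSF4, TNFRSF8 and TNFSF8 stayed at or under 0.261 scaled TPM in all libraries, and TNFRSF18 was listed at 0 in every library but TAZ library 3.

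**Figure D4:**
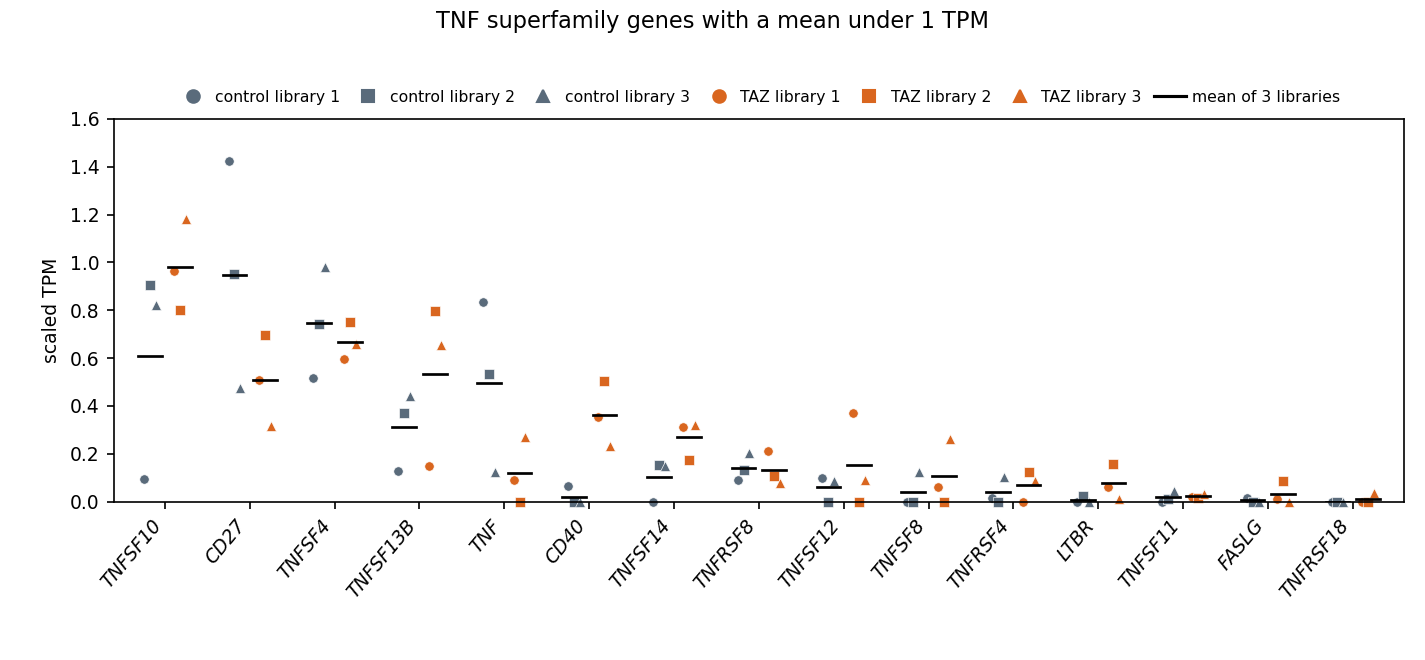
Scaled TPM of the 15 genes with a mean under 1 TPM in each control (grey) and TAZ (orange) library, with group means as bars. CD40 and TNFSF14 have all TAZ libraries above all control libraries, at levels under 0.6 scaled TPM.

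In the remaining axes, TNFRSF19 (chr13:24144509-24250232, plus strand) was the call. TNFRSF19 is TROY, a receptor better known from the nervous system and the hair follicle. It measured 4.70, 6.06 and 4.94 scaled TPM in the control and 1.92, 2.29 and 2.09 in the TAZ libraries. The groups were well separated, with a ratio of means of 0.401 and a difference of -1.003 ± 0.17 (adjusted p = 0.0318, lower in 3 of 3 TAZ libraries). Its reads lay on 3 of the 10 exons of the annotated transcript. On the last exon all TAZ libraries lay below all control libraries, with depths of 3.36, 4.62 and 3.78 per 1000 megabases in the control and 1.203, 1.86 and 1.81 in the TAZ libraries. The groups were also apart on the exon of 406 bases. On the first exon (479 bases) they overlapped, at 3.505, 3.68 and 1.70 in the control and 1.37, 2.17 and 1.37 in the TAZ libraries. The call is marginal: it was lost without any 1 library other than control library 3 (adjusted p from 0.0710 to 0.144), without scaling (adjusted p = 0.130), with upper quartile scaling (adjusted p = 0.0718) and with no filter (adjusted p = 0.104).

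TNFRSF12A, the TWEAK receptor Fn14 (chr16:3068446-3072384, plus strand), had the largest positive difference of the 21 tested genes. It measured 2.21, 10.3 and 10.8 scaled TPM in the control and 50.1, 26.4 and 26.9 in the TAZ libraries. All TAZ libraries lay above all controls and the ratio of the means was 4.45, but both groups were spread, and the difference of 2.17 ± 0.55 missed the threshold (adjusted p = 0.110). Control library 1 was the lowest, and in it the last exon (613 bases) had a depth of 0.0109 per 1000 megabases, beside 10.4 and 8.99 in the other controls and 46.7, 26.3 and 25.0 in the TAZ libraries. CLDN6 on the opposite strand shares 40 exon bases with it and measured 135 ± 37.1 and 172 ± 35.7 scaled TPM (SD, n = 3 each). Without scaling TNFRSF12A was called (difference 2.42, adjusted p = 0.0458). Its ligand TNFSF12, TWEAK, measured at most 0.372 scaled TPM and was listed at 0 in 2 libraries.

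TNFRSF11A, the receptor RANK of osteoclast biology (chr18:59992520-60058516, plus strand), measured 2.50, 3.52 and 4.77 scaled TPM in the control and 1.89, 1.70 and 1.298 in the TAZ libraries. The groups did not overlap, and the difference of -0.78 ± 0.24 missed the threshold (adjusted p = 0.167). Its ligand TNFSF11, RANKL, was at most 0.0432 scaled TPM on at most 51 aligned bases.

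LTB, lymphotoxin beta (chr6:31548302-31550299, minus strand), which anchors lymphotoxin alpha at the membrane, was the second most abundant gene. It measured 168, 146 and 207 scaled TPM in the control and 148, 101.5 and 143 in the TAZ libraries, with groups that overlapped and a difference of -0.42 ± 0.23 (adjusted p = 0.383). Its receptor LTBR was at most 0.159 scaled TPM. LTA, TNF and LTB lie within one stretch of chromosome 6 with gaps of 1.24 and 2.19 kb. Their control means were 2.57, 0.498 and 174 scaled TPM, so neighbours differed widely in level. TNFRSF1B, the second TNF receptor TNFR2, had 7.28 ± 2.51 and 7.67 ± 3.48 scaled TPM (SD, n = 3 each), a difference of 0.04 ± 0.35.

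Genes that act downstream of these receptors were read from lists by role, and 0 of their 43 tested members were called. Of the death domain and caspase genes 10 of 11 were tested. TRADD, the adaptor of TNFRSF1A, measured 4.28, 3.92 and 18.9 scaled TPM in the control and 25.5, 22.8 and 21.9 in the TAZ libraries (adjusted p = 0.200). All TAZ libraries lay above all control libraries, and control library 3 stood close to them. FADD, the adaptor of FAS, measured 77.8 ± 0.165 and 60.9 ± 9.11 scaled TPM (SD, n = 3 each, adjusted p = 0.321). The list's median log2 difference was 0.04. For the TRAF, cIAP and ubiquitin genes all 21 were tested, 1 had an unadjusted p under 0.05 (17.96% of all tested genes had one) and the median was 0.08. TRAF4 was the highest at 212 ± 29.7 and 217 ± 29.1 scaled TPM, and TNFAIP3, the deubiquitinase A20, followed at 138 ± 47.6 and 198 ± 9.25 (SD, n = 3 each, adjusted p = 0.343).

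Of the NF-kB genes 8 of 9 were tested, 3 had an unadjusted p under 0.05, beside 17.96% of all tested genes, and the median was -0.49. RELB, a subunit of the non-canonical pathway used by BAFF, CD40 and lymphotoxin beta receptors, stood next to RELA in mean level. It measured 112, 102 and 116 scaled TPM in the control and 77.7, 61.8 and 49.6 in the TAZ libraries. The groups did not overlap, and the difference of -0.82 ± 0.20 missed the threshold (adjusted p = 0.104). RELA measured 104 ± 19.5 and 96.5 ± 13.8 scaled TPM (SD, n = 3 each). CHUK, the kinase IKK alpha, measured 7.65 ± 1.69 and 3.16 ± 1.66 (SD, n = 3 each, adjusted p = 0.176). The shedding proteases and their helpers gave 4 tested genes, 0 with an unadjusted p under 0.05 (17.96% of all tested genes), among them ADAM10 at 32.4 ± 6.30 and 39.0 ± 7.25 scaled TPM (SD, n = 3 each). Of 11 further superfamily genes outside the rule 2 were tested, TNFRSF17 and RELT, and 0 were called.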

How the data were processed

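Polyadenylated RNA of KMM1 cells was sequenced on an Ion Torrent Proton instrument, 2 libraries a chip. The sources used here do not name the pairs, so chip and group cannot be told apart. Per the submitters' processing notes, STAR 2.3.0, Bowtie2 2.0.0 and StringTie 1.3.3b were used with hg19. Per the file headers, StringTie quantified a supplied annotation only, 1 run a library, unpooled. Annotation release and use of strand: not given in the sources used here. The deposited values are coverage, FPKM and TPM for each of 195984 transcripts. No read counts were used, so no count test was run.

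The deposited transcript TPM was summed per gene and scaled by the median of ratios over 28148 genes above 0 in every library (factors from 0.873 to 1.23). Genes whose mean reached 1 TPM before scaling were tested with limma 3.58.1 in R 4.3.3 (eBayes with trend and robust, no block) on log2(scaled TPM + 1), and p was adjusted over all 19390 tested genes by Benjamini-Hochberg. Aligned bases came from the deposited ratio of coverage to FPKM, which is constant in a library. The median SE was 0.24 on the log2 scale. The procedure was tested on simulated gene values with independent libraries and normal spread. That simulation held no shifts in transcript assignment and no empty exons, so it cannot speak to these. Values in each library are given for genes past the threshold, for genes with groups that do not overlap and a difference of at least 0.5, for the highest gene of each role and for partners of these. Members and lists were chosen with earlier results of these data known, and the fixed gene length was added after seeing the data. Other alternatives were scaling, FPKM, pseudocount, filter, eBayes settings, the replicate block and leaving out each library. OTULIN and JCHAIN were read under the older symbols FAM105B and IGJ, and PECAM1 was not matched. Promoters were matched by symbol for 25 of the 36 genes. The values of 1 gene of the death domain and caspase list are not reported here.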

Additional observations from a re-analysis of the deposited data

How the results depend on the processing

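Over 17 other settings TNFRSF9 was called in every one (log2 difference from -1.80 to -1.19, adjusted p from 0.00524 to 0.0436). The count of 2 TNF superfamily genes called became 1 with upper quartile scaling, no filter, a mean of at least 5 TPM or the replicate block, 3 without scaling (TNFRSF12A and TNFRSF14 rose, TNFRSF9 fell), and 1 to 3 when a library was left out. The only gene called in those with 1 was TNFRSF9 (TNFRSF19, with a mean under 5 TPM, was not tested at that filter), and the 3 called on leaving out control library 3 were TNFRSF9, CD70 and TNFRSF19. The count over all genes was 352 with no filter, 236 with the replicate block and 278 to 774 when a library was left out. Deviations of same-numbered libraries correlated at 0.00, -0.02 and -0.05, so no shared deviation was seen. Whether those libraries were handled together is not in the labels, and these values cannot settle it. TNFRSF19 lost its call under the replicate block (adjusted p = 0.117). TNFRSF1B reversed on leaving out control library 3 (-0.21) or TAZ library 1 (-0.27), within a range up to 0.26 over all libraries left out. The cause of these shifts was not tested. TNFRSF14 (1.03, adjusted p = 0.0496) and TNFRSF12A were called without scaling only, and TNFSF9 nowhere (adjusted p from 0.0535 to 0.274). Genes under 1 TPM rested on at most 2602 aligned bases a library, which limits what could be detected among them.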
